A study of Mus musculus with 23 samples.

Results

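Endothelial genes are genes whose transcripts mark the cells that line blood vessels. The 10 genes followed here were the receptor genes Kdr, Flt1, Tek and Tie1, the junction and surface genes Cdh5, Pecam1, Cldn5 and Cd34, and the transcription factor genes Etv2 and Sox18. They were chosen by name, by matching the gene symbols of the array's probes, and each matched 1 probe, so 10 of the 18069 named genes, or 10 of the 36227 probes on the array, entered. Of these, 8 probes were among the 21979 that had enough values above the dim range to be tested. The probes of Cdh5 and Flt1 were not among them.

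In the embryo, Etv2 starts the endothelial and blood programme in mesoderm, and cells that take up this fate carry Kdr, the main signalling receptor for VEGF. The angioblasts then join into tubes that are held together by junction proteins such as VE-cadherin (Cdh5) and PECAM-1, and the Tek and Tie1 receptors act in the stabilization and remodelling of these tubes. In the mouse embryo at this stage the dorsal aortae, the endocardium and the vessels of the yolk sac are forming, and the heart has begun to beat.

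Whole mouse embryos of day 8.5 from matings of p53 heterozygous mice spent 10 minutes in water at either 38 °C (the control bath) or 43 °C (the heat bath), then were genotyped and pooled. Each pool held 3 to 7 embryos of 1 genotype and 1 bath, and its total RNA was measured on a CodeLink array, a 1-colour oligonucleotide array. The 23 pools formed 6 groups. These were p53 +/+ (wildtype), p53 +/- (heterozygous) and p53 -/- (null) embryos in the control bath, with 4 pools each, and the same genotypes in the heat bath, with 4 wildtype, 4 heterozygous and 3 null pools. The p53 alleles of the heterozygous and null embryos were carried in all of their cells, and the handling in a bath was shared by all groups. The sources used here gave neither the strain nor the time from the bath to collection. The pools were called biological replicates, but nothing named their litters, so p-values measured only the spread between these pools.

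The promoters of 7 of the 10 genes were matched in RefSeq (build GRCm38.p6). The 250 bases before the listed start are printed for Cldn5 and Cd34, the pair whose levels followed each other most closely from pool to pool, and for Tie1 and Tek. The levels of Tie1 correlated with those of Cldn5 and Cd34 at -0.46 and -0.32, and those of Tek only weakly, at -0.36 and -0.13. Capitals mark GGAAG or its reverse complement CTTCC, a form of the GGAA core that ETS family factors such as Etv2 recognize. GGAA or TTCC beside another base is not marked, and the Cd34 and Tek windows hold such stretches. The listed starts of Tek, and of Kdr, Flt1 and Etv2 among the windows not printed, lie inside the spans of their genes, so another start precedes each.
Cldn5 (chr16:18776597-18776846, + strand): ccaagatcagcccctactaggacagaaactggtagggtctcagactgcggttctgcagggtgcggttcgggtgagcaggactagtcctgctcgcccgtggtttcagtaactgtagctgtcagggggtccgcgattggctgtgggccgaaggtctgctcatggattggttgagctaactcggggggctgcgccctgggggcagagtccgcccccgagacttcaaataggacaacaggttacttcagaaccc
Cd34 (chr1:194938571-194938820, + strand): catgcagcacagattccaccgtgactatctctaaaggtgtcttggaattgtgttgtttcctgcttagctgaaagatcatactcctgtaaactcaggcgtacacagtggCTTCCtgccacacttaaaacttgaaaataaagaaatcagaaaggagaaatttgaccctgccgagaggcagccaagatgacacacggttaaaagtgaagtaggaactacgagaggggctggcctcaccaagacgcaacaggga
Tie1 (chr4:118489850-118490099, - strand): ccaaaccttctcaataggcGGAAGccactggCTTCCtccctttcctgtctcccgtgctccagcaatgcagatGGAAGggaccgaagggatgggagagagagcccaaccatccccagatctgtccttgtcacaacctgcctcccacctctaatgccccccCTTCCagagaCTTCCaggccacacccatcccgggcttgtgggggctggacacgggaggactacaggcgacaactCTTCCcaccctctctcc
Tek (chr4:94739039-94739288, + strand): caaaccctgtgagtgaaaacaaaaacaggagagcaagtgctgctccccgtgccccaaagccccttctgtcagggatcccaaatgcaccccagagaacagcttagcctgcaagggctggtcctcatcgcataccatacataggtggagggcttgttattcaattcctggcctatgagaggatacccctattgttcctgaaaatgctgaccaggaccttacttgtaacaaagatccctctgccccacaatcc
GGAAG or CTTCC occurred 6 times in the Tie1 window, 1 time in that of Cd34, and 0 times in those of Cldn5 and Tek. Among the windows not printed, Flt1 had 3, Etv2 had 2 and Kdr had 1. Of 32851 windows of the same length, 64.1% held GGAAG or CTTCC, so such a match is common. ACAAAG, a core bound by SOX factors such as Sox18, occurred 1 time in the Tek window and in none of the other 6 windows, against 16.5% of all windows. GATAA, a core bound by GATA factors, occurred in none of the 7, against 22.6% of all windows. Both strands were searched, no match overlapped one of another core, and a match only describes the letters of these windows.

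Intensities below are in the array's relative units after quantile normalization, differences are log2 values ± SE, and adjusted p-values are from limma with 0.05 as the threshold. The deposited control columns held 7576 to 11666 empty cells each and no values at or below 0, whereas heat columns held none that were empty, so the bath and this difference in column handling cannot be told apart. No tested probe named Trp53, so the p53 transcript was not analysed here, nor were the labels of genotype checked with it. Hspb1, a small heat shock protein gene, was at 63.5 to 95.9 in the 11 heat pools and at 15.2 to 20.2 in the 11 control pools with a value, so these groups did not overlap. Hspa1a, an inducible Hsp70 gene, was at 78.7 to 123 in wildtype heat A, C and D, at 120 in null heat B, and at 0.877 in wildtype heat B. In the other heat pools it was at 1.49 to 2.1, and in controls at 0.496 to 1.04. Hspa1b, a further such gene, was at 100 to 125 in wildtype heat A, C and D, at 93.5 in null heat B, and at 4.17 in wildtype heat B. It was at 4.29 to 5.85 in the other heat pools and at 3.76 to 5.75 in controls. Wildtype heat B and null heat B thus stood apart from the pools of their own group in both genes. The labels were kept, and the cause was not tested. The heat values of Cldn5, Cd34, Pecam1 and Sox18 and of the named genes past the threshold are therefore given without them too.

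The label of the genes was checked against their own levels. Kdr, Tek, Tie1, Cldn5 and Sox18 were above the array's 40th percentile on every array that gave a value, Cd34 on 21 and Pecam1 on 20 of the 23 arrays, and Etv2 on 9. Cdh5, the VE-cadherin gene and a defining marker of endothelium, had a value in 2 of 12 control pools and exceeded that percentile on 0 arrays. Its deposited intensities on the 11 heat arrays ran from 0.0719 to 0.36. Flt1, the VEGF receptor 1 gene, had a value in 5 of 12 control pools, from 0.547 to 0.857 as deposited, and ran from 0.0949 to 0.75 on the heat arrays. These probes had no value in most control pools, and no null control pool gave one for Flt1, so neither gene passed the filter and neither was tested. Over the heat pools Flt1 averaged 0.561 ± 0.16 in wildtype, 0.467 ± 0.0875 in heterozygous (n = 4 each) and 0.411 ± 0.181 in null pools (SD, n = 3), and Cdh5 0.307 ± 0.0862, 0.281 ± 0.0168 and 0.274 ± 0.00981, with overlapping ranges. The floor for low values and the normalization raised many of these values. Cdh5 went from 0.0719 to 0.238 in wildtype heat D and from 0.144 to 0.304 in heterozygous heat D. Flt1 went from 0.0949 to 0.222 in null heat C. The Cdh5 means and SDs thus largely describe the processing of low values.

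**Figure D1:**
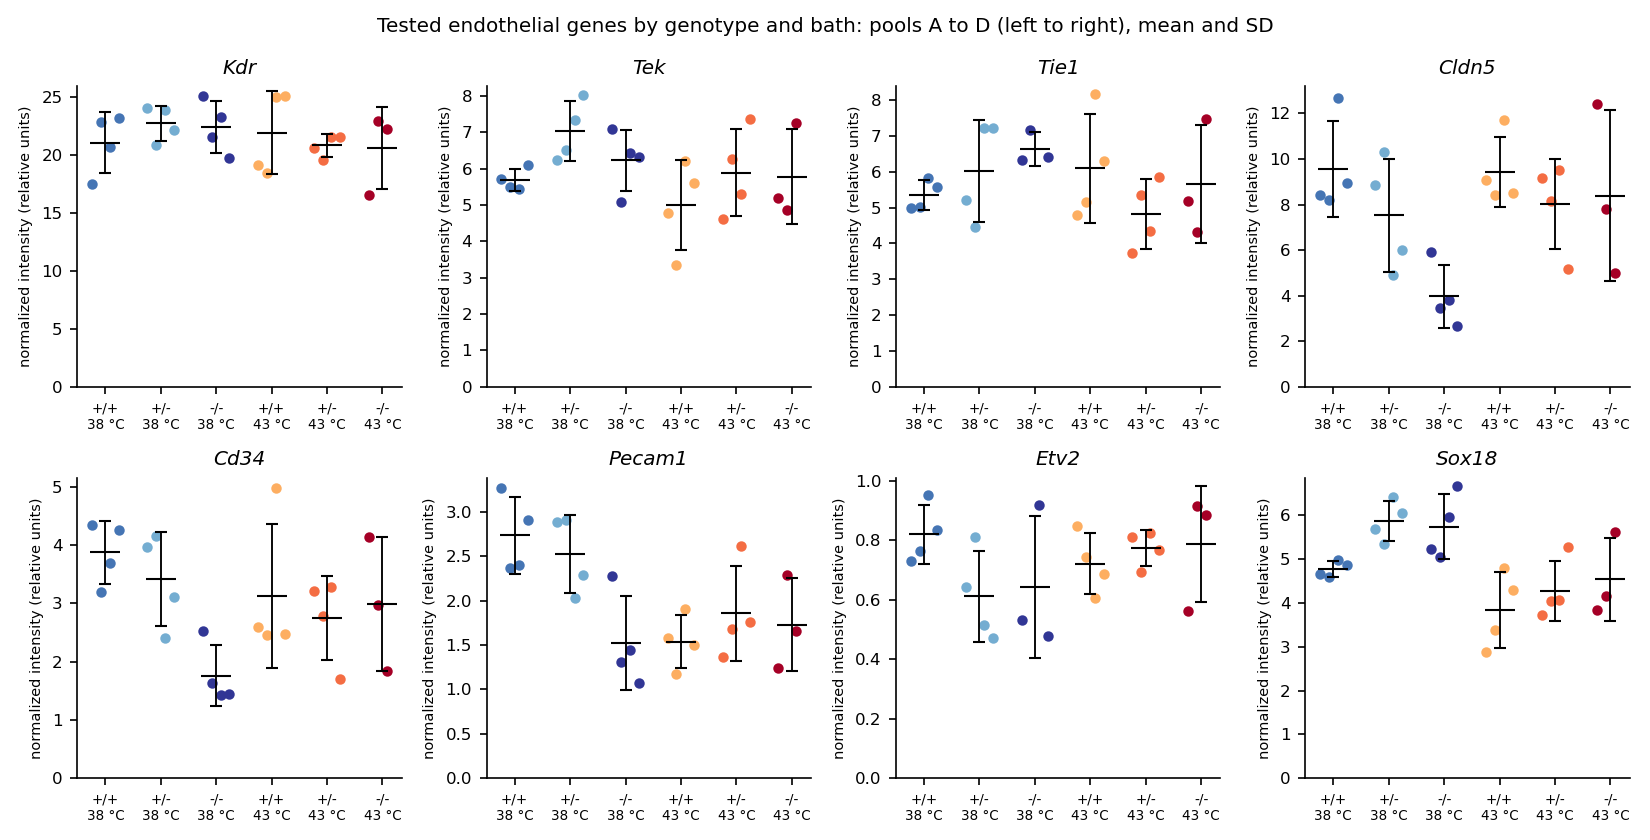
Normalized intensity (relative units, axes starting at 0) of the 8 tested endothelial genes in every pool, with pools A to D from left to right within each genotype and bath, and bars for the group mean and SD. Cldn5, Cd34 and Pecam1 were lowest in the null pools of the 38 °C bath, where Cldn5 averaged 3.97 against 9.57 in wildtype, while Kdr lay between 16.6 and 25.1 in all pools.

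In control embryos without p53, the junction gene Cldn5, the surface antigen gene Cd34 and the adhesion gene Pecam1 were lower than in wildtype embryos, by 2.48, 2.25 and 1.84 fold. The receptors Kdr, Tek and Tie1 and the transcription factors Etv2 and Sox18 did not pass the test. Thus 3 of 8 tested genes fell and 0 rose, where 8.36% of all tested probes passed in either direction and 4.69% were lower; in a fit of the compared groups alone 4 passed, the fourth being Tie1 as higher. In whole-embryo RNA, fewer cells of a type and less RNA per cell cannot be told apart.

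Cldn5 encodes claudin-5, a tight junction protein of endothelial cells. Its intensity was 8.43, 8.22, 12.7 and 8.95 in wildtype control pools A to D, and 5.91, 3.45, 3.83 and 2.68 in null control pools A to D. Every null pool was below every wildtype pool, with null A the closest. The difference was -1.31 ± 0.28 (adjusted p = 0.013), and the group means were 9.57 ± 2.11 and 3.97 ± 1.38 (SD, n = 4 each).

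Cd34 encodes a sialomucin on the surface of endothelial cells and blood progenitors. It was at 4.34, 3.2, 3.69 and 4.26 in wildtype controls A to D and at 2.53, 1.63, 1.43 and 1.44 in null controls A to D. The groups again did not overlap, and null A was again the highest null pool. The difference was -1.17 ± 0.27 (adjusted p = 0.017), between means of 3.87 ± 0.534 and 1.76 ± 0.523 (SD, n = 4 each).

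Pecam1 encodes an adhesion molecule at the contacts between endothelial cells. Wildtype controls A to D had 3.27, 2.36, 2.4 and 2.9, and null controls A to D had 2.28, 1.31, 1.44 and 1.07. Null A lay just under wildtype B, and the other null pools lay well under all wildtype pools. The difference was -0.88 ± 0.23 (adjusted p = 0.024). Leaving out 1 pool kept Cldn5 past the threshold in every case (largest adjusted p = 0.049), but Cd34 missed it without wildtype D (0.051) or null B, C or D (0.053, 0.05 and 0.056), and Pecam1 without wildtype A or D (0.068 and 0.064) or null B, C or D (0.07, 0.058 and 0.091).

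The angiopoietin receptor gene Tek and its relative Tie1 did not share this direction. Tie1 was at 5, 5.01, 5.83 and 5.58 in wildtype controls and at 6.34, 7.17 and 6.4 in null controls A, B and D, with no value in null C. All 3 null values were above the wildtype ones, but the difference, 0.31 ± 0.21, missed the threshold (adjusted p = 0.35). In a fit of the compared groups alone it passed as higher, at 0.31 ± 0.10 (adjusted p = 0.033). Tek ran from 5.44 to 6.11 in wildtype and from 5.09 to 7.1 in null controls (0.12 ± 0.17, adjusted p = 0.68). Kdr, the VEGF receptor 2 gene, ran from 17.5 to 23.2 in wildtype and from 19.8 to 25.1 in null controls, and these ranges overlapped over most of their length (0.09 ± 0.12, adjusted p = 0.65).

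Sox18, a transcription factor gene of vessel and lymphatic development, was at 4.67, 4.58, 4.99 and 4.86 in wildtype controls and at 5.24, 5.05, 5.97 and 6.67 in null controls. The null pools were all higher, yet the difference of 0.26 ± 0.15 missed the threshold (adjusted p = 0.28). Etv2 was dim, at 0.729 to 0.953 in wildtype and at 0.532, 0.917 and 0.479 in null controls A, C and D, and its groups overlapped (-0.41 ± 0.22, adjusted p = 0.24). The groups did not overlap for 5 of the 8 genes, namely Cldn5, Cd34, Pecam1, Tie1 and Sox18, against 26% of all tested probes. The median difference of the 8 genes was -0.16, and that of all tested probes was 0.04.

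Single markers of other cell types passed in this comparison as well, in which 8.36% of all tested probes passed and 4.69% were lower. By list these were 2 of 8 primitive red cell, 1 of 5 mural and 2 of 5 neural markers. The counts were 0 of 4 for blood progenitors, 0 of 8 for heart muscle, 0 of 10 for yolk sac endoderm, and 0 of 3 each for allantois and trophoblast. No list was tested as a whole. Of 8 tested markers of primitive red cells, Klf1, a red cell transcription factor gene, fell by 1.10 ± 0.22 (adjusted p = 0.011) and Epor, the erythropoietin receptor gene, fell by 0.92 ± 0.21 (adjusted p = 0.017). The summed level of 6 of the list's genes was 117 to 185 in wildtype and 116 to 165 in null controls. This sum held Hbb-y, Gata1, Klf1, Alas2, Nfe2 and Tfrc, and Epor was not in it. Among 5 tested mural cell markers, Acta2, smooth muscle actin, fell by 0.31 ± 0.10 on 1 probe (adjusted p = 0.049) and was at -0.24 on another (adjusted p = 0.28); the first missed the threshold with arrays centred on their medians (-0.22, adjusted p = 0.15). The summed level of 4 mural markers was 79.8 to 91.8 in wildtype and 69.6 to 79.2 in null controls, and that of 2 allantois markers was 4.93 to 6.01 and 3.19 to 4.62, so neither pair of ranges overlapped. Of single probes, 26% did not overlap between these groups. The allantois sum held Pitx1 and Tbx2, and the other tested allantois marker, Hand1, was at -0.06 ± 0.14 (adjusted p = 0.83). Of 5 tested neural markers, Pax6 rose by 0.49 ± 0.14 (adjusted p = 0.031) and Otx2 fell by 0.95 ± 0.27 (adjusted p = 0.034). Of the 8 fits that left out 1 pool, Klf1 passed in 8, Epor in 7, Pax6 in 2, Otx2 in 1 and Acta2 in 0, and Pax6 missed the threshold in the values as deposited (adjusted p = 0.1). None of the tested markers of blood progenitors, heart muscle, yolk sac endoderm, allantois or trophoblast passed, of which heart genes summed to 209 to 239 and 192 to 220, and yolk sac genes to 186 to 263 and 121 to 218. The part of these values in the endothelial differences was not tested.

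**Figure D2:**
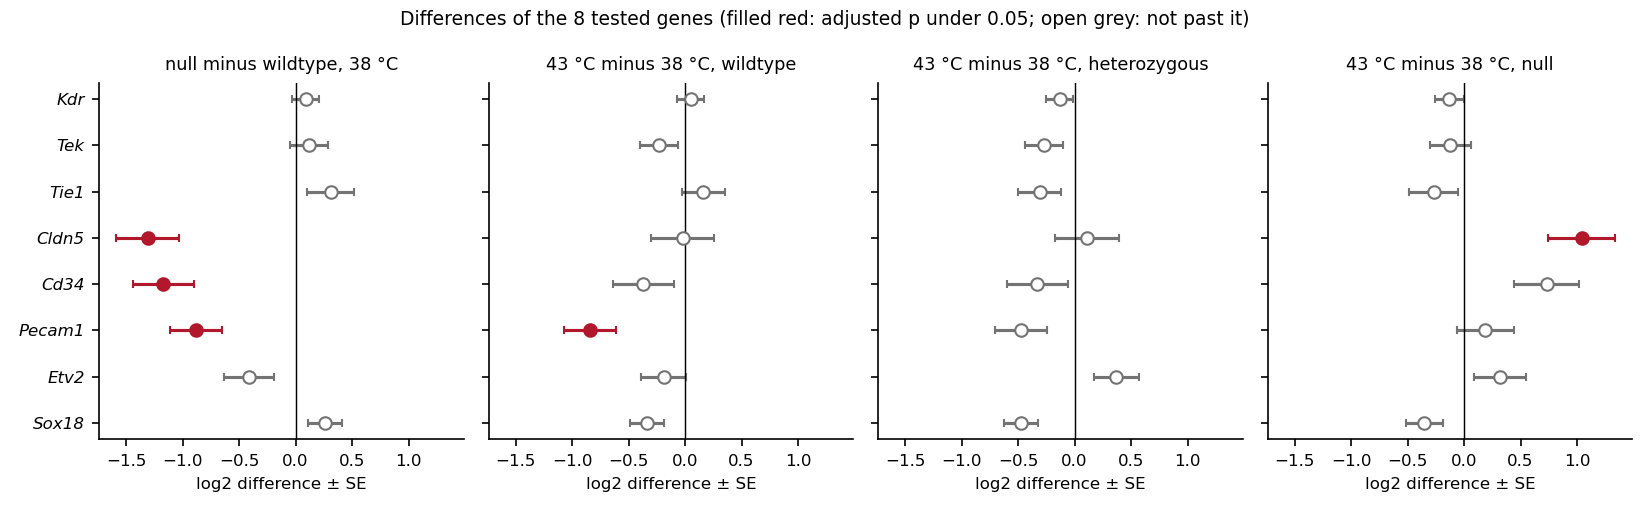
Log2 differences (points) and SE (bars) of the 8 tested endothelial genes in 4 comparisons, with filled points past an adjusted p of 0.05. In null against wildtype controls Cldn5, Cd34 and Pecam1 lie at -1.31, -1.17 and -0.88, and the only filled points of the heat comparisons are Pecam1 in wildtype (-0.84) and Cldn5 in null embryos (1.04); with quantiles matched over all values the Pecam1 point turns to 0.20.

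The heat bath was followed by a lower Pecam1 level in wildtype embryos and by a higher Cldn5 level in null embryos, and the other tested endothelial genes did not pass in any genotype. In wildtype pools 1 of 8 genes fell, against 3.08% of all probes in either direction and 1.79% lower. In heterozygous pools 0 of 8 passed in limma (1 at an unadjusted p under 0.05), against 2.31%. In null pools 1 of 8 rose, against 5.53% in either direction and 2.88% higher. The medians of the 8 genes were -0.21, -0.29 and 0.03 in wildtype, heterozygous and null pools, beside 0.01, 0.02 and -0.03 over all tested probes. Directions with heat are relative to the bulk of probes: when quantiles were matched over all values instead, the median of all probes moved to 0.9, 0.85 and 0.94 in these genotypes, and 5, 5 and 8 of the 8 genes passed as higher, where 87.6%, 87.5% and 91.7% of all probes passed.

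Pecam1 in wildtype embryos was at 1.58, 1.17, 1.9 and 1.5 after the heat bath, against 3.27, 2.36, 2.4 and 2.9 in controls. All heat pools were below all control pools. It was the only one of the 8 genes without overlap, a share near the 13.2% of all probes. The difference was -0.84 ± 0.23 (adjusted p = 0.047), or 1.79 fold lower. Without wildtype heat B, the pool low in Hspa1a, it was -0.71 ± 0.24 (adjusted p = 0.1). The call was also lost without wildtype control A, B, C or D or heat A or D (adjusted p from 0.061 to 0.13), and when the highest intensity of each array entered as a covariate (adjusted p = 0.083). With quantiles matched over all values the Pecam1 difference turned to 0.20 (adjusted p = 0.5).

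In heterozygous pools Pecam1 was at 2.88, 2.91, 2.03 and 2.29 in controls and at 1.37, 1.68, 2.61 and 1.76 after heat, and heat C lay among the controls (-0.47 ± 0.23, adjusted p = 0.32). In null pools it was at 1.24, 2.29 and 1.66 after heat, within the control range of 1.07 to 2.28 except for null heat B, which lay just above it (0.19 ± 0.25, adjusted p = 0.64). The null heat response minus the wildtype one was 1.03 ± 0.34 for Pecam1 (adjusted p = 0.12), so a difference between the genotypes was not established. The corresponding values were 1.10 ± 0.40 for Cd34 (adjusted p = 0.14) and 1.06 ± 0.41 for Cldn5 (adjusted p = 0.16). Without wildtype heat B or without null heat B, 0 of 8 genes passed here or between null and wildtype heat pools, and Pecam1 was at 0.90 ± 0.34 and 0.80 ± 0.34, Cd34 at 1.01 ± 0.41 and 1.06 ± 0.43, and Cldn5 at 1.01 ± 0.43 and 1.06 ± 0.45. Of 8 genes 0 passed this test in limma, with 3 at an unadjusted p under 0.05, against 1.01% of all probes. For the heterozygous minus the wildtype response, 0 of 8 passed, with 0 at an unadjusted p under 0.05, against 0%.

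Cldn5 in null embryos was at 12.4, 7.8 and 4.98 after heat, against 5.91, 3.45, 3.83 and 2.68 in controls. Null heat C lay within the control range and the other 2 heat pools above it, so the groups overlapped, as they did for all 8 genes in this comparison (0 of 8 without overlap, against 23.3% of probes). The difference was 1.04 ± 0.30 (adjusted p = 0.044), or 2.06 fold higher. Without null heat B, the pool high in Hspa1a, it was 1.05 ± 0.35 (adjusted p = 0.13). The call also ended without null control B, C or D (0.11, 0.082 and 0.12), without null heat A (0.71 ± 0.31, adjusted p = 0.17) and in a fit of the compared groups alone (adjusted p = 0.085). These null controls are the same pools that were low against wildtype controls.

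Cldn5 was at 9.07, 8.43, 11.7 and 8.51 in wildtype heat pools, within the range of 8.22 to 12.7 of the controls (-0.02 ± 0.28, adjusted p = 0.99). In heterozygous pools it ran from 4.9 to 10.3 in controls and from 5.18 to 9.54 after heat (0.11 ± 0.28, adjusted p = 0.9). Cd34 in null pools was at 4.14, 2.97 and 1.84 after heat against 1.43 to 2.53 in controls, a rank order of pools like that of Cldn5, and its difference of 0.73 ± 0.29 missed the threshold (adjusted p = 0.12). Without null heat C this difference was 1.04 ± 0.30 and passed (adjusted p = 0.043). In wildtype heat pools Cd34 was at 2.59, 2.45, 4.97 and 2.48, with pool C far above the rest, and the difference from controls was -0.37 ± 0.27 (adjusted p = 0.51). In heterozygous pools it was -0.33 ± 0.27 (adjusted p = 0.6). Without wildtype heat B the wildtype values were 0.03 ± 0.30 for Cldn5 and -0.28 ± 0.29 for Cd34, and without null heat B the null value was 0.70 ± 0.34 for Cd34 (adjusted p = 0.31) and -0.03 ± 0.27 for Pecam1 (adjusted p = 0.96).

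Sox18 had a negative difference with heat in every genotype and passed in none, and with quantiles matched over all values the differences turned to 0.52, 0.28 and 0.52 in wildtype, heterozygous and null pools. It was at 2.87, 3.38, 4.79 and 4.3 in wildtype heat pools against 4.58 to 4.99 in controls (-0.34 ± 0.15, adjusted p = 0.22). In heterozygous pools it was at 3.73, 4.04, 4.06 and 5.28 after heat against 5.69, 5.35, 6.42 and 6.04 in controls. These groups did not overlap. Sox18 was the only such gene of the 8 in this genotype, a share near the 9.35% of probes. The difference was -0.47 ± 0.15 (adjusted p = 0.099). It passed without heterozygous heat D (-0.57 ± 0.15, adjusted p = 0.039). In null pools the values were 3.83, 4.16 and 5.62 after heat against 5.05 to 6.67 (-0.35 ± 0.16, adjusted p = 0.17). With the highest intensity of each array as a covariate Sox18 passed as lower in all 3 genotypes, at -0.49 ± 0.13, -0.68 ± 0.14 and -0.40 ± 0.13 (adjusted p = 0.032, 0.0082 and 0.034). Without wildtype heat B the wildtype difference was -0.29 ± 0.16 (adjusted p = 0.33), and without null heat B the null one was -0.30 ± 0.18 (adjusted p = 0.44).

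Kdr varied least of the 8 genes. Its SD within groups was 0.17 on the log2 scale, against 0.22 for Sox18 and 0.43 for Cldn5, and its heat differences were 0.05 ± 0.12, -0.13 ± 0.12 and -0.13 ± 0.13 in wildtype, heterozygous and null pools (smallest adjusted p = 0.53). Tek was at 4.79, 3.35, 6.2 and 5.62 in wildtype heat pools, and its heat differences were -0.23 ± 0.17, -0.27 ± 0.17 and -0.12 ± 0.18. Tie1 was at 4.78, 5.16, 8.17 and 6.3 in wildtype heat pools, with pool C the highest as for Cldn5, Cd34, Pecam1, Tek and Sox18. Its differences were 0.16 ± 0.19, -0.31 ± 0.19 and -0.27 ± 0.22. Etv2 ran from 0.563 to 0.915 over all heat pools, with differences of -0.19 ± 0.20, 0.37 ± 0.20 and 0.32 ± 0.23. None of these passed, and the ranges of the compared groups overlapped.

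Between genotypes after the heat bath, no endothelial gene passed. Null minus wildtype heat pools gave 0 of 8 genes in limma, with 0 at an unadjusted p under 0.05, against 0.56% of probes. Cldn5, Cd34 and Pecam1 differed there by -0.25 ± 0.30, -0.07 ± 0.29 and 0.15 ± 0.25. Heterozygous minus wildtype heat pools gave 0 of 8, again with 0 at an unadjusted p under 0.05, against 0.141% of probes. In the control bath, heterozygous minus wildtype gave 0 of 8, with 1 at an unadjusted p under 0.05 (Etv2, -0.45 ± 0.20, adjusted p = 0.82), against 0.00455%. Tek (0.30 ± 0.17) and Sox18 (0.30 ± 0.15) did not overlap between these groups, 2 of 8 against 3.89% of probes, and had adjusted p-values of 0.82 each.

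The heterozygous control pools differed among themselves, and A and B were set against C and D after their values were seen. Pools A and B had Cldn5 at 8.88 and 10.3, and pools C and D had 4.9 and 6.01. Cd34 was at 3.97 and 4.15 against 2.41 and 3.11, and Pecam1 at 2.88 and 2.91 against 2.03 and 2.29. Tie1 ran the other way, at 5.21 and 4.45 in A and B and at 7.22 and 7.23 in C and D. On the log2 scale A and B minus C and D was 0.82 for Cldn5, 0.57 for Cd34, 0.55 for Etv2, 0.43 for Pecam1, -0.04 for Kdr, -0.18 for Sox18, -0.27 for Tek and -0.59 for Tie1. Over 18286 other probes the median size of this difference was 0.265, and 2.72% of them exceeded 1 in size. In A and B the levels of Cldn5, Cd34 and Pecam1 were within the wildtype control range, and in C and D all 3 lay below it.

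The same contrast was measured over the whole array as a split score, in which each pool is projected on the difference between heterozygous controls A and B and C and D over 18286 probes, the endothelial genes left out. Wildtype controls scored from 0.07 to 0.42 and null controls from -0.61 to -0.24, so the score ran along with genotype in the control bath. Among heat pools, heterozygous heat D scored -0.26 and null heat C -0.30, and the others from -0.06 to 0.43. Over the 12 control arrays the correlation of the score with the log2 level was 0.84 for Cldn5 and for Cd34, 0.82 for Pecam1, 0.55 for Etv2, -0.24 for Kdr, -0.33 for Tek, -0.61 for Sox18 and -0.91 for Tie1. Over the 11 heat arrays it was 0.59 for Cldn5, 0.49 for Cd34, 0.03 for Pecam1 and for Etv2, -0.35 for Kdr, -0.68 for Tek, -0.77 for Sox18 and -0.58 for Tie1. Arrays of 1 group share genotype, bath and this split, so these values are a description. With the score as a covariate in the fit, null minus wildtype in the control bath was -0.75 ± 0.26 for Cldn5, -0.69 ± 0.27 for Cd34 and -0.58 ± 0.25 for Pecam1 (adjusted p = 0.31, 0.39 and 0.45), and the Cldn5 heat difference in null pools was 0.56 ± 0.26 (adjusted p = 0.33). In the same fit Klf1, Epor, Acta2, Pax6 and Otx2 did not pass between null and wildtype controls either (smallest adjusted p = 0.25). The score and the null genotype overlap in these pools, and what sets the score was not tested.

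**Figure D3:**
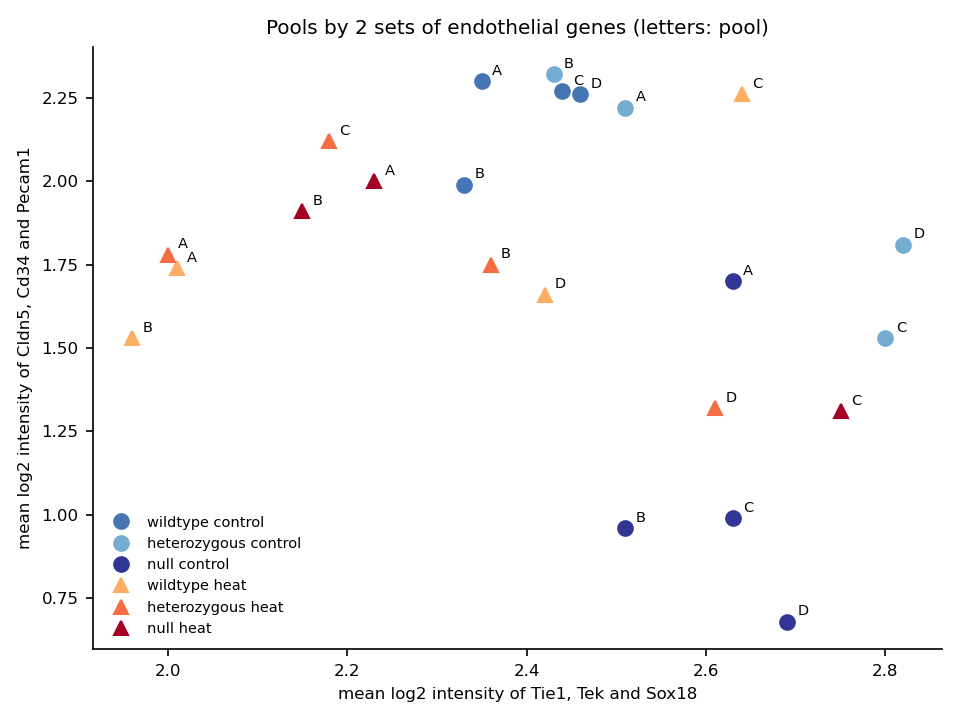
Mean log2 intensity of Cldn5, Cd34 and Pecam1 (vertical) against that of Tie1, Tek and Sox18 (horizontal) in each of the 23 pools, with colour and shape for the group and letters for the pool; both axes are cut to the range of the data. Null controls B, C and D lie lowest, at 0.68 to 0.99 on the vertical axis, null control A lies at 1.7 among other pools, and heterozygous controls C and D lie to the right of A and B.

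Gathered into sets after these values were seen, the genes of Cldn5, Cd34 and Pecam1 on the one side and of Tie1, Tek and Sox18 on the other gave a difference of mean log2 levels in every pool, which has meaning only between pools. It was -0.34 to -0.05 in wildtype controls and -2.01 to -0.93 in null controls. Heterozygous controls A and B had -0.29 and -0.11, near wildtype, and C and D had -1.28 and -1.01, within the null range. Among heat pools, heterozygous heat D (-1.29) and null heat C (-1.44) lay in that range too, and the other 9 lay between -0.75 and -0.06. Null heat A and B, at -0.23 and -0.24, were close to wildtype controls in this difference only. Null heat B lay below the wildtype control range in each of these genes. Null heat A lay below it in Pecam1, Tek and Sox18 and within it in Cldn5, Cd34 and Tie1. As the sets were chosen with these values seen, the separation of null from wildtype controls is no test.

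The pools' deviations from their group means leave out the differences between groups but keep the split among the heterozygous controls. They showed the same pairs in part, with Pecam1 apart, and as the sets came from these values this is no separate support. Cldn5 and Cd34 correlated at 0.85, Tie1 and Sox18 at 0.76, Tek and Tie1 at 0.73 and Tek and Sox18 at 0.71 over the 23 arrays (22 where Tie1 enters). Cldn5 correlated with Sox18 at -0.49 and with Tie1 at -0.43. Pecam1 was at 0.44 with Cd34 and 0.35 with Cldn5, at 0.25 with Tek, -0.11 with Tie1 and -0.01 with Sox18, and at 0.46 with Kdr. Genes measured on 1 array share its RNA and its normalization, so these correlations are given with no test.

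**Figure D4:**
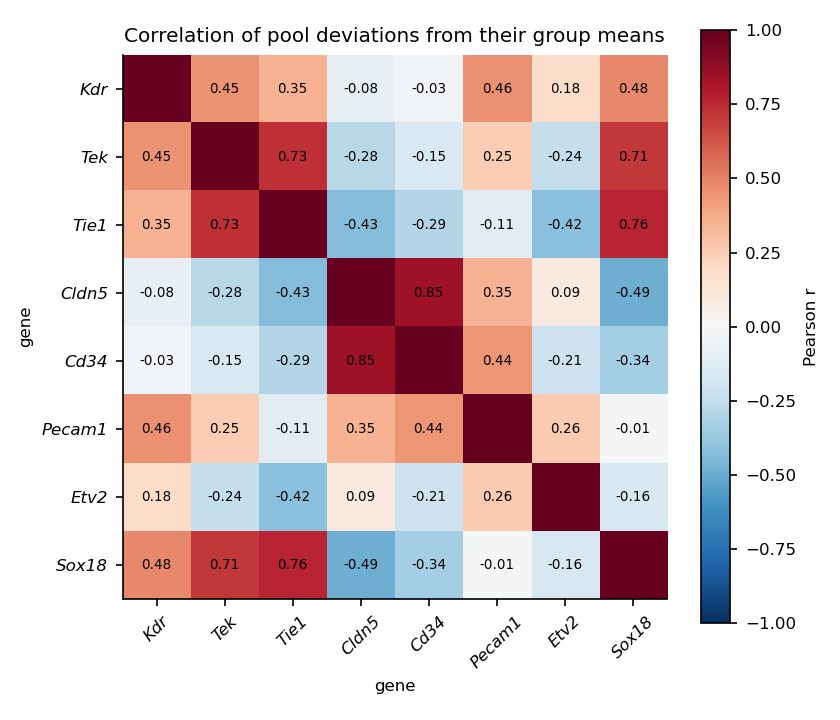
Pearson correlation of the pools' deviations from their group mean (log2 scale) for each pair of the 8 tested endothelial genes, coloured from -1 (blue) to 1 (red). Cldn5 and Cd34 form 1 block at 0.85, Tek, Tie1 and Sox18 another at 0.71 to 0.76, and pairs between the blocks are at -0.15 to -0.49.

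The genes outside the list whose pattern over pools came closest to the mean z-score of the 8 genes were E130307A14Rik, Nek4, Pdgfd, Capn6 and Rpap3. Likeness was the smaller of the correlations over the 12 control and the 11 heat arrays. For E130307A14Rik these were 0.82 and 0.88, for Nek4 0.78 and 0.83, for Pdgfd 0.77 and 0.82, for Capn6 0.76 and 0.8, and for Rpap3 0.74 and 0.93. They were picked as the highest among all tested probes with 1 symbol, so large values follow in part from the picking. The mean z-score also averages genes that ran in opposite ways, such as Cldn5 and Sox18 at -0.49, so likeness to it is not likeness to each gene.

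Wider lists of genes with roles in endothelium moved in few members. Of VEGF ligands and co-receptors, 7 of 8 genes were tested. In null against wildtype controls 1 of 7 fell and 0 rose, where 8.36% of all probes passed and 4.69% were lower, and this was Nrp1, a co-receptor for VEGF and semaphorins (-0.94 ± 0.24, adjusted p = 0.023). The list's median was 0.12 against 0.04 for all probes. Nrp1 passed in 2 of 8 fits that left out 1 pool (largest adjusted p = 0.088), and with the split score as a covariate it was at -0.42 ± 0.21 (adjusted p = 0.51). With heat 0 of 7 passed in limma in any genotype, beside 3.08%, 2.31% and 5.53% of all probes in wildtype, heterozygous and null pools. The smallest adjusted p-values were those of Vegfb in heterozygous (-0.38 ± 0.11, 0.065), Flt4, the VEGF-C receptor gene, in null (-0.39 ± 0.13, 0.07) and Pgf in wildtype pools (-0.34 ± 0.11, 0.1).

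Of the angiopoietin and TGF-beta genes, 4 of 9 were tested, and 0 passed in null against wildtype controls or with heat in limma. Of all probes, 8.36% passed in null against wildtype controls. With heat 3.08%, 2.31% and 5.53% passed in wildtype, heterozygous and null pools, so 0 of 4 is no result about these genes. Ptprb, the endothelial phosphatase that acts on Tek, was at -0.61 ± 0.21 in null against wildtype controls on the probe used (adjusted p = 0.075). A further Ptprb probe gave -0.77 (adjusted p = 0.028) and another gave -0.23 (adjusted p = 0.37), so the probes of this gene did not give 1 answer. Angpt2, an angiopoietin, was at 0.40 ± 0.15 with heat in wildtype and 0.45 ± 0.15 in heterozygous pools (adjusted p = 0.15 and 0.12).

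Among the Notch, arterial and venous genes, 13 of 15 were tested. In null against wildtype controls 2 fell and 1 rose, beside 8.36% of all probes in either direction and 4.69% lower, with a median of 0.03. Ephb4, a receptor gene of venous endothelium, fell by 1.56 ± 0.33 (adjusted p = 0.013), Nrarp, a feedback target of Notch signalling, fell by 0.84 ± 0.23 (adjusted p = 0.029), and the receptor gene Notch1 rose by 0.42 ± 0.12 (adjusted p = 0.037). Ephb4 passed in all 8 fits that left out 1 pool, Nrarp and Notch1 in 2 of 8 each, and with the split score as a covariate the values were -0.71 ± 0.22, -0.26 ± 0.16 and 0.27 ± 0.13 (adjusted p = 0.25, 0.63 and 0.5). With heat in wildtype pools 1 rose, again Notch1 (0.47 ± 0.12, adjusted p = 0.033, and 0.38 ± 0.13, adjusted p = 0.083, with arrays centred on their medians), and 0 fell, beside 3.08% of all probes. This Notch1 value was 0.55 ± 0.13 without wildtype heat B (adjusted p = 0.019). In heterozygous and null pools 0 of 13 passed in limma, beside 2.31% and 5.53% of all probes. Notch1 was at -0.33 ± 0.12 and -0.24 ± 0.13 there (adjusted p = 0.16 and 0.25), and Ephb4 in null pools at 1.02 ± 0.35 (adjusted p = 0.083).

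Of endothelial transcription factors, 16 of 18 were tested, and 0 passed in null against wildtype controls in limma, beside 8.36% of all probes, with a median of 0.09. With heat 1 of 16 fell in heterozygous pools, beside 2.31% of all probes, Foxc1, a forkhead factor gene of mesoderm (-0.37 ± 0.10, adjusted p = 0.047, and past the threshold in 0 of 8 fits that left out 1 pool). In wildtype or null pools 0 of 16 passed, beside 3.08% and 5.53% of all probes. The ETS factor gene Erg was at -0.71 ± 0.21 with heat in null pools (adjusted p = 0.055) and Sox17 at -0.41 ± 0.12 in wildtype pools (adjusted p = 0.073). Tal1, a factor of blood and endothelium, stayed within 0.14 of 0 in these 4 comparisons, and none of its values passed.

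The junction, adhesion and surface list had 29 of 32 genes tested. In null against wildtype controls 0 of 29 passed in limma, beside 8.36% of all probes in either direction and 4.69% lower, with a median of 0.01. Icam2, an adhesion molecule of endothelium, came nearest at -0.41 ± 0.13 (adjusted p = 0.055). Esam, Plvap and Cd93 were at 0.11 ± 0.09, -0.11 ± 0.11 and 0.09 ± 0.12.

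With heat in wildtype pools 2 of the 29 fell and 0 rose, beside 3.08% of all probes in either direction and 1.79% lower, with a median of -0.24. These were Emcn, the endomucin gene of veins and capillaries (-0.75 ± 0.18, adjusted p = 0.02), and Vcam1, a leukocyte adhesion molecule gene (-0.88 ± 0.21, adjusted p = 0.023). Emcn was at -0.81 ± 0.19 (adjusted p = 0.022) and Vcam1 at -0.78 ± 0.22 (adjusted p = 0.059) without wildtype heat B. In heterozygous pools 4 of the 29 fell and 0 rose, beside 2.31% of all probes, with a median of -0.14. Mmrn1, a multimerin gene, fell by 1.06 ± 0.19 (adjusted p = 0.004), and Emcn again fell, by 0.71 ± 0.18 (adjusted p = 0.035). Vwf, the von Willebrand factor gene, fell by 0.66 ± 0.17 and Cd93 by 0.47 ± 0.12 (adjusted p = 0.037 each). Mmrn1 passed in all 8 fits that left out 1 pool, Emcn in 5 of 8 in wildtype and 2 of 8 in heterozygous pools, and Vcam1, Vwf and Cd93 in 1 of 8 each. With quantiles matched over all values Mmrn1 was at -0.17 ± 0.18 and the other falls turned positive, to 0.13 and 0.11 for Emcn in wildtype and heterozygous pools, 0.24 for Vcam1, 0.31 for Vwf and 0.35 for Cd93.

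In null pools the list gave 1 rise and 0 falls of 29 with heat, near the 2.88% of all probes that were higher (5.53% in either direction), with a median of -0.06. Egfl7, a matrix protein gene of endothelium, rose by 0.30 ± 0.09 (adjusted p = 0.049), and passed in 1 of 7 fits that left out 1 pool. Mmrn1 was at -0.65 ± 0.20 there and at -0.68 ± 0.19 in wildtype pools (adjusted p = 0.062 and 0.053), and Emcn at 0.05 ± 0.19 in null pools (adjusted p = 0.9). Without null heat B, Egfl7 was at 0.32 ± 0.10 (adjusted p = 0.12).

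Among markers of other cell types with heat, Apoa2, a yolk sac apolipoprotein gene, fell in wildtype pools (-1.40 ± 0.35, adjusted p = 0.031), and it was at -1.26 ± 0.38 without wildtype heat B (adjusted p = 0.07). Apoa2 passed in 2 of 8 fits that left out 1 pool, and was 1 of 10 tested yolk sac genes, beside 3.08% of all probes. Epor rose in null pools (1.07 ± 0.22, adjusted p = 0.01), and it was at 1.01 ± 0.25 without null heat B (adjusted p = 0.051). Epor passed in 5 of 7 fits that left out 1 pool, and was 1 of 8 tested red cell markers, beside 5.53% of all probes. The summed level of 5 neural markers was 35.9 to 39.2 in wildtype heat pools and 41.2 to 49.8 in wildtype controls, without overlap (as for 13.2% of single probes), though none of these genes passed singly. In heterozygous pools it was 36.4 to 42 after heat and 41.5 to 45.8 in controls, and in null pools 43.9 to 45.2 and 43.4 to 47.8. Summed yolk sac genes ran from 114 to 257 after heat against 186 to 263 in wildtype, from 203 to 314 against 118 to 238 in heterozygous and from 171 to 247 against 121 to 218 in null pools, and summed mural markers in null pools from 76.9 to 89.7 against 69.6 to 79.2. The part of these differences in the endothelial values was not tested.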

How the data were processed

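RNA levels in 23 pools of whole mouse embryos were read from the deposited table of CodeLink intensities, which are linear and in relative units. Per the labels' protocols the total RNA came from a column kit and the target was labelled with biotin. How the authors scanned, background-corrected and normalized the arrays was not stated in the sources used here. The number of arrays limits the precision.

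Empty cells and the code for missing were treated as missing. Low values were raised to the 5th percentile of the positive values on their array, and log2 was taken. Array medians over the 18702 probes measured on all arrays spanned 0.336, so quantiles were matched on those probes and interpolated for the rest. A tested probe had 3 values in every group and exceeded the 40th percentile on at least 3 arrays. Symbols were those of the platform annotation at GEO, brought up to date with a RefSeq table (GRCm38.p6). Of all probes, 21615 had 1 symbol (21487 matched by ID), 681 several and 13931 none.

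Group means of the 6 groups were fitted to all arrays with limma 3.58.1 in R 4.3.3 (lmFit, then eBayes with trend), for 9 comparisons. P-values are two-sided, from limma, and adjusted by Benjamini-Hochberg over the 21979 tested probes, with 0.05 as threshold, and "rose" and "fell" are used only past it. Errors are SE for log2 differences and SD over pools for intensities. The fit was tested on simulated data. Members and gene lists were chosen with earlier results of these data known. From each further list the text may name up to 4 genes past the threshold, or the 2 of smallest p where none passed; other list genes, the heat shock genes and the sets of endothelial genes were chosen after their values were seen. A gene with several probes is represented by the one of highest mean. The letters of the pools name no shared litter or day in any source, and were not treated as pairs.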

Additional observations from a re-analysis of the deposited data

Results flagged for a closer look

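Cd34 in wildtype heat pool C stood apart from the other pools of its group. It was at 4.97, while pools A, B and D were at 2.59, 2.45 and 2.48, and its gap to the nearest pool took up 0.923 of the group's whole range on the log2 scale, past Dixon's critical value for 4 samples. In all, 42 groups of 4 pools were examined in this way, and chance alone places about 1 in 20 such groups past that value. Wildtype heat C was also the highest pool of its group in Cldn5, Pecam1, Tek, Tie1 and Sox18, and not in Kdr or Etv2.

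Epor, the erythropoietin receptor gene, was the only marker of another cell type whose heat response differed between null and wildtype embryos by the test of the difference itself. It was 1 of 8 tested red cell markers, and none passed in the other lists of cell types, where 1.01% of all probes passed. The null minus wildtype response was 1.30 ± 0.29 (limma adjusted p = 0.037). It was 0.95 ± 0.26 (adjusted p = 0.059) with arrays centred on their medians, and it passed in 5 of 15 fits that left out 1 pool. Without wildtype heat B it was 1.21 ± 0.30 (adjusted p = 0.045), and without null heat B 1.24 ± 0.32 (adjusted p = 0.11).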

How the results depend on the processing

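Median centring, the values as deposited and no floor left the number of endothelial genes past the threshold as reported in all 9 comparisons. In null against wildtype controls the count of 3 became 4 with only the compared groups (Tie1 higher, adjusted p = 0.033) and 0 with the split score as a covariate, and ran from 1 to 3 when 1 pool was left out. With heat in wildtype pools the count of 1 became 5 with quantiles matched over all values, 0 with no intensity filter and 0 with the replicate block (Pecam1 adjusted p = 0.054), stayed at 1 with the highest value as a covariate but with Sox18 in place of Pecam1, and ran from 0 to 1 when 1 pool was left out. In heterozygous pools the count of 0 became 5 with quantiles over all values, 1 with the replicate block (Sox18, adjusted p = 0.022), 2 with the highest value of the array as a covariate (Tie1 and Sox18), 1 with the split score (Sox18), and 0 to 1 when 1 pool was left out. In null pools the count of 1 became 8 with quantiles over all values, 0 with only the compared groups, 0 with the replicate block (Cldn5 adjusted p = 0.051), 3 with the highest value, 0 with the split score, and 0 to 2 when 1 pool was left out. In the other 5 comparisons 0 genes passed in every fit. Leaving out heterozygous controls A and B, or C and D, chosen after seeing the data, gave 0 as well.

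With quantiles matched over all values every heat difference of the 8 genes was positive. Those that turned and passed, or were called before, were Tek 0.58, Etv2 1.08, Pecam1 0.20 and Sox18 0.52 with heat in wildtype pools, Tie1 0.41, Tek 0.41 and Kdr 0.34 in heterozygous pools, and Tie1 0.56, Tek 0.70, Kdr 0.43 and Sox18 0.52 in null pools. Those that turned without passing were Cldn5 0.64 and Cd34 0.56 in wildtype and Cd34 0.56, Pecam1 0.48 and Sox18 0.28 in heterozygous pools. The control columns hold no value under 0.188 and up to 11666 empty cells, whereas the heat columns hold values down to 0 and below, so that matching sets unequal parts of the arrays on each other. The cause of the other changes was not tested.

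The replicate block changed no other call. Same-lettered pools of different groups correlated at a median of 0.08 (55 pairs) in their deviations from group means, and 7 of 23 arrays correlated best with a pool of their own letter. Among all probes, 41.7% of those past the threshold with heat in wildtype pools were higher, against 30.6% with median centring and 9.95% as deposited. In null pools these shares were 52.2%, 36.2% and 63.4%, in heterozygous pools 32.1%, 27% and 20.1%. The dim probes of Cdh5, Flt1 and Etv2 limit what can be said of those genes.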
